A study of Sus scrofa with 20 samples.

Results

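Complex I, or NADH:ubiquinone oxidoreductase, is the entry point for electrons from NADH into the mitochondrial respiratory chain. It has the shape of an L: a hydrophilic arm in the matrix oxidises NADH and passes the electrons along iron-sulfur clusters to ubiquinone, and a membrane arm pumps protons across the inner membrane. Its core subunits carry out this chemistry, and a larger set of accessory subunits, all encoded in the nucleus, is needed to build the complex and hold it together. In skeletal muscle the complex is most abundant in oxidative fibres.

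The nuclear subunit genes of complex I were examined in M. longissimus, a muscle that runs along the spine, in female pigs of contrasting residual feed intake (RFI). RFI is the part of feed intake that production and upkeep of the body do not account for. There were 10 animals with low RFI, the more feed-efficient ones, and 10 with high RFI, each with total RNA measured on 1 Affymetrix Snowball array. Breed, age, diet and the RFI value of each animal are not given in the sources used here, and the labels name no treatment. Each array was counted as 1 animal.

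A list of 35 subunit genes was matched to the array by gene symbol, and 25 of them had a probe set, out of 12255 genes with a tested probe set on the array. A gene with more than 1 probe set was read from the one of highest mean over the 20 arrays, a choice that does not use the RFI groups. NDUFV1, NDUFS3, NDUFS8, NDUFA2, NDUFA5, NDUFA6, NDUFA11, NDUFA13 and NDUFB7 were not matched and are not analysed here. NDUFV2, the tenth unmatched gene, stands on the platform under the spelling NUDFV2 and is described apart from the list. All 25 matched genes passed the filter on dim probe sets, which used the mean over all arrays, and 23 had a mean above the mean signal of the array's background controls, 3.64 on the log2 scale. The exceptions were NDUFA1 at 3.48 and NDUFA4 at 1.94. Single background control probe sets had means from 1.02 to 7.84. A mean above their average is therefore not by itself a sign that a transcript was detected.

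Array medians of the deposited log2 signals lay between 2.79 and 2.89, and correlations between arrays ranged from 0.916 to 0.978. ACTA1, CKM, DES, MYH1, MYH2, TTN and NEB, genes of the contractile and energy machinery of muscle fibres, all had means above the background controls, and their mean level ran from 11.42 to 12.31 in low RFI and from 11.43 to 12.27 in high RFI. The 4 arrays of highest background control signal, low RFI replicates 7, 9 and 10 and high RFI replicate 9, stood apart from the other 16, with 3.83 or more against 3.71 or less. Subunit differences are therefore given with and without them.

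Complex I transcripts had slightly lower values in low RFI, by amounts smaller than the spread between animals. Of the 25 subunits 23 were lower and 2 higher in low RFI, with 20 lower after quantile or cyclic loess normalization. The median difference, low RFI minus high RFI, was -0.10 on the log2 scale, a signal 6.91% lower. Differences below 0 made up 49.2% of all tested probe sets, with a median of 0.0024, and 50.8% of genes. Among the brighter genes, those whose mean reached 5, they made up 55.8%, with a median of -0.018. No subunit differed by limma at a Benjamini-Hochberg adjusted p under 0.05 (0 of 25, with adjusted p-values of 0.998 to 0.999), on an array where 0% of 33405 probe sets were called. At an unadjusted limma p under 0.05 there were also 0 of 25 subunits, against 3.91% of all tested probe sets (1306), with 1.43% lower in low RFI. A Wilcoxon rank sum test likewise called 0 probe sets after adjustment and had 1158 at an unadjusted p under 0.05. Since the arrays measure a whole piece of tissue, fewer mitochondria-rich fibres and less RNA per fibre cannot be told apart.

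**Figure D1:**
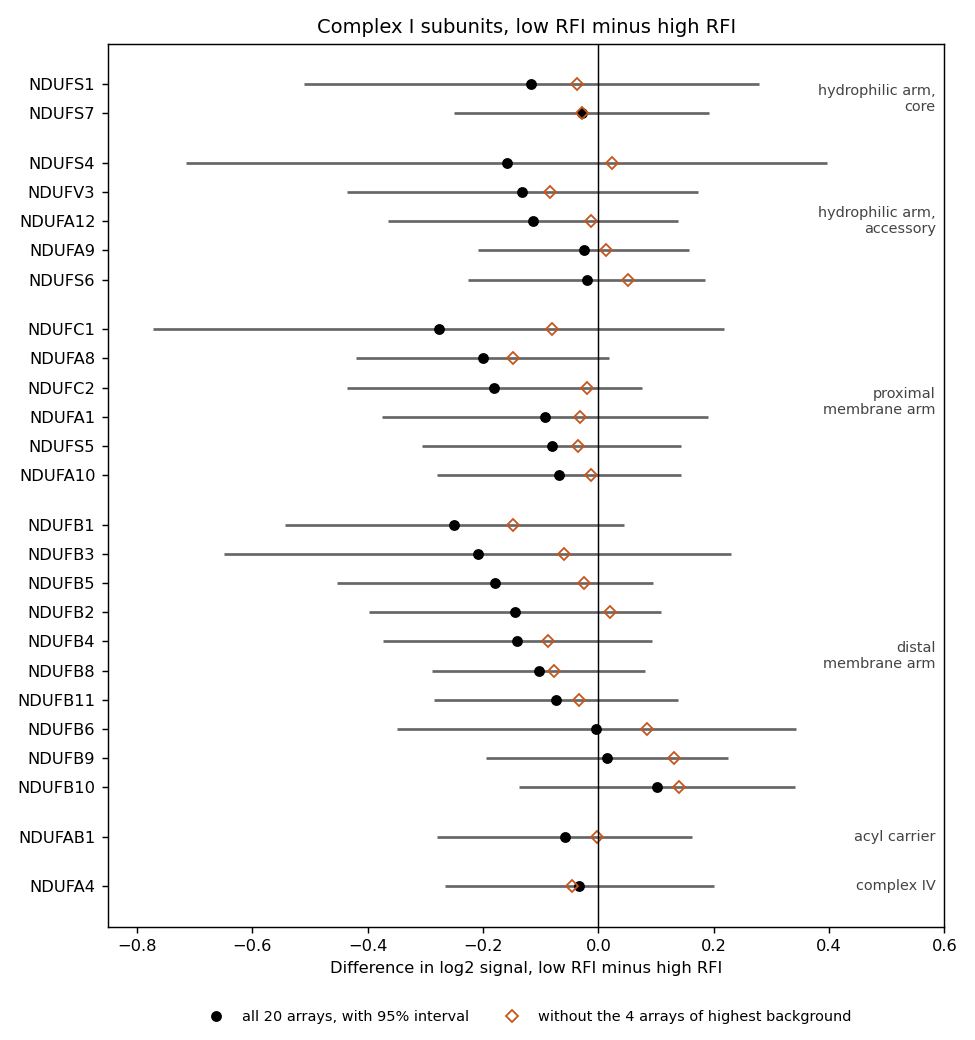
Difference in log2 signal between low RFI and high RFI (x axis) for the 25 complex I subunits, grouped by their place in the complex. Dots with lines are the differences over 20 arrays with 95% intervals, all of which cross 0, and open diamonds are the differences without the 4 arrays of highest background.

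The intervals were narrow enough to bound these differences of the signal. For all 25 subunits the 95% confidence interval lay within 1 log2 unit of 0, so that each excluded a 2-fold difference of the signal, and for 20 it lay within 0.5. For NDUFA1 and NDUFA4, with means below the background controls, such an interval does not bound the difference of the transcript. The median half-width was 0.24, against 0.26 over all tested probe sets. For 17 subunits the difference was smaller than its own standard error.

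Without the 4 arrays of highest background, 3 of which belong to low RFI and 1 to high RFI, 18 of 25 subunits were lower in low RFI and the median difference was -0.028, a signal 1.92% lower. The difference shrank in 20 of the 25. With the background control signal as a covariate 20 of 25 were lower and the median was -0.062.

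In the core of the hydrophilic arm, where NADH is oxidised and electrons travel towards ubiquinone, 2 of the 6 listed subunits were measured, and both were lower in low RFI by less than their standard errors. NDUFS1, the largest core subunit and a carrier of iron-sulfur clusters, ran from 5.84 to 7.10 with a median of 6.48 in low RFI, and from 5.57 to 7.39 with a median of 6.55 in high RFI. Its groups overlapped fully, and its lowest and its highest value both belonged to high RFI animals (replicates 9 and 10). The difference was -0.12 ± 0.19 (SE; limma adjusted p = 0.998, n = 10 per group), and -0.038 without the 4 arrays. NDUFS7, which holds the last iron-sulfur cluster before ubiquinone, differed by -0.029 ± 0.11. Its other probe sets differed by -0.062 and by -0.23 ± 0.098, the last with an unadjusted limma p of 0.0294, so the gene's value depends on the probe set read. NDUFV2, a core subunit of this arm listed as NUDFV2, averaged 7.78 ± 0.27 in low RFI and 7.81 ± 0.35 in high RFI (SD, n = 10 each), a difference of -0.032 ± 0.14, and of 0.026 without the 4 arrays.

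All 5 measured accessory subunits of the hydrophilic arm were lower in low RFI, with a median difference of -0.11. NDUFS4, which fastens the NADH-oxidising end and whose loss causes Leigh syndrome in humans, varied more between animals than any other measured subunit, with a pooled SD of 0.65. It ran from 4.29 to 6.54 with a median of 5.93 in low RFI, and from 4.55 to 6.61 with a median of 5.92 in high RFI. Its 3 lowest values, 4.29, 4.55 and 4.74, came from low RFI replicate 9, high RFI replicate 9 and low RFI replicate 10, all among the arrays of highest background. The difference of -0.16 ± 0.27 turned to 0.024 without the 4 arrays. NDUFA9, which lies near the ubiquinone site, varied least, with a pooled SD of 0.17. Its values ran from 8.12 to 8.75 with a median of 8.50 in low RFI, and from 8.14 to 8.65 with a median of 8.54 in high RFI. With a difference of -0.026 ± 0.088 the groups overlapped throughout, and the sign turned under quantile and cyclic loess normalization and without the 4 arrays. NDUFA12, which takes the place of the assembly factor NDUFAF2 during assembly in human cells, differed by -0.11 ± 0.12, and by -0.013 without the 4 arrays, which held its 4 lowest values. NDUFV3, an accessory subunit beside the flavoprotein, differed by -0.13 ± 0.15, with -0.14 at its other probe set and -0.084 without the 4 arrays. NDUFS6, a zinc-binding subunit, stood at -0.021, a value above 0 under quantile and cyclic loess normalization and without the 4 arrays.

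The 6 measured subunits of the proximal membrane arm, where the membrane domain joins the hydrophilic arm, were all lower in low RFI, with a median of -0.14. NDUFA8, a disulfide-bonded subunit on the intermembrane space side, had the smallest p of the 25. It ran from 6.32 to 7.13 with a median of 6.88 in low RFI, and from 6.56 to 7.24 with a median of 6.96 in high RFI. The ranges overlapped over most of their length, although 8 of 10 low RFI animals lay below the high RFI median. The difference was -0.20 ± 0.11 (95% interval -0.42 to 0.019), with an unadjusted limma p of 0.0711 and an adjusted p of 0.998. Without the 4 arrays it was -0.15.

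NDUFC2, a small membrane-spanning subunit, ran from 7.16 to 8.33 with a median of 7.88 in low RFI, and from 7.70 to 8.20 with a median of 7.97 in high RFI. The highest value as well as the 4 lowest belonged to low RFI animals, and 3 of those lowest values came from arrays of highest background. Its difference was -0.18 ± 0.12, and -0.019 without the 4 arrays. Its neighbour NDUFC1 had the largest difference of the 25, -0.28 ± 0.24, with values from 4.13 to 5.84 in low RFI and from 4.17 to 5.87 in high RFI. Those ranges were nearly the same, and its 4 lowest values came from the 4 arrays of highest background, without which the difference was -0.081. Over 20 arrays the interval of -0.77 to 0.22 was the widest but one. A dimmer NDUFC1 probe set gave -0.19. NDUFS5, on the intermembrane space side, differed by -0.081, and by -0.036 without the 4 arrays. NDUFA10, which resembles nucleoside kinases, differed by -0.068, and by -0.012 without them. NDUFA1, a small membrane subunit with a mean below the background controls, differed by -0.093, and by -0.032 without them.

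The distal membrane arm, the far end of the proton-pumping domain, was the best covered, with 10 of 11 NDUFB subunits measured. There 8 were lower and 2 higher in low RFI, with a median of -0.12. NDUFB1, a small single-pass subunit, ran from 7.88 to 9.05 with a median of 8.66 in low RFI, and from 8.27 to 9.24 with a median of 8.87 in high RFI. The 3 highest values belonged to high RFI animals, and the 3 lowest to low RFI replicates 9 and 10 and high RFI replicate 9. The difference was -0.25 ± 0.14 (95% interval -0.54 to 0.044; unadjusted limma p = 0.0917, adjusted p = 0.998), and -0.15 without the 4 arrays. NDUFB5, a single-pass membrane subunit, ran from 5.83 to 6.78 with a median of 6.53 in low RFI, and from 6.11 to 6.85 with a median of 6.66 in high RFI. The 4 arrays of highest background held its 4 lowest values. Its difference was -0.18 ± 0.13, and -0.025 without those arrays.

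Both subunits that were higher in low RFI belonged to this arm. NDUFB10, another disulfide-bonded subunit of the intermembrane space side, ran from 3.81 to 4.42 with a median of 4.20 in low RFI, and from 3.58 to 4.35 with a median of 4.13 in high RFI, a difference of 0.10 ± 0.12. The 2 lowest values were from high RFI animals (replicates 7 and 10) and the groups otherwise overlapped. Without the 4 arrays the difference was 0.14. NDUFB9, of the LYR motif family, ran from 8.45 to 9.13 with a median of 8.76 in low RFI, and from 8.40 to 9.06 with a median of 8.71 in high RFI. Its difference was 0.015 ± 0.10, with overlapping groups. It was 0.13 without the 4 arrays, and -0.025 without high RFI replicate 2. The remaining subunits of the arm differed by -0.21 for NDUFB3, -0.14 for NDUFB2 and NDUFB4, -0.10 for NDUFB8, -0.073 for NDUFB11 and -0.0034 for NDUFB6. Without the 4 arrays NDUFB3 stood at -0.060, NDUFB2 at 0.021, NDUFB4 at -0.087, NDUFB8 at -0.077, NDUFB11 at -0.033 and NDUFB6 at 0.085.

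NDUFAB1, the mitochondrial acyl carrier protein that sits in both arms of the complex and also serves fatty acid synthesis in the mitochondrion, ran from 6.55 to 7.26 with a median of 6.84 in low RFI, and from 6.59 to 7.29 with a median of 6.92 in high RFI. The difference was -0.059 ± 0.11, with ranges that almost coincided, and -0.0017 without the 4 arrays. NDUFA4, long listed with complex I and assigned to complex IV in later work on human cells, was read from probe sets that both lay below the background controls, with means of 1.94 and 1.42. It ran from 1.64 to 2.27 with a median of 1.997 in low RFI, and from 1.58 to 2.45 with a median of 1.88 in high RFI. At that signal its difference of -0.033 ± 0.11 gives no size for the transcript. Of the 7 subunits with more than 1 probe set, 5 had all of them on the same side of 0, and NDUFA4 and NDUFB8 had a dim one on the other side.

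**Figure D2:**
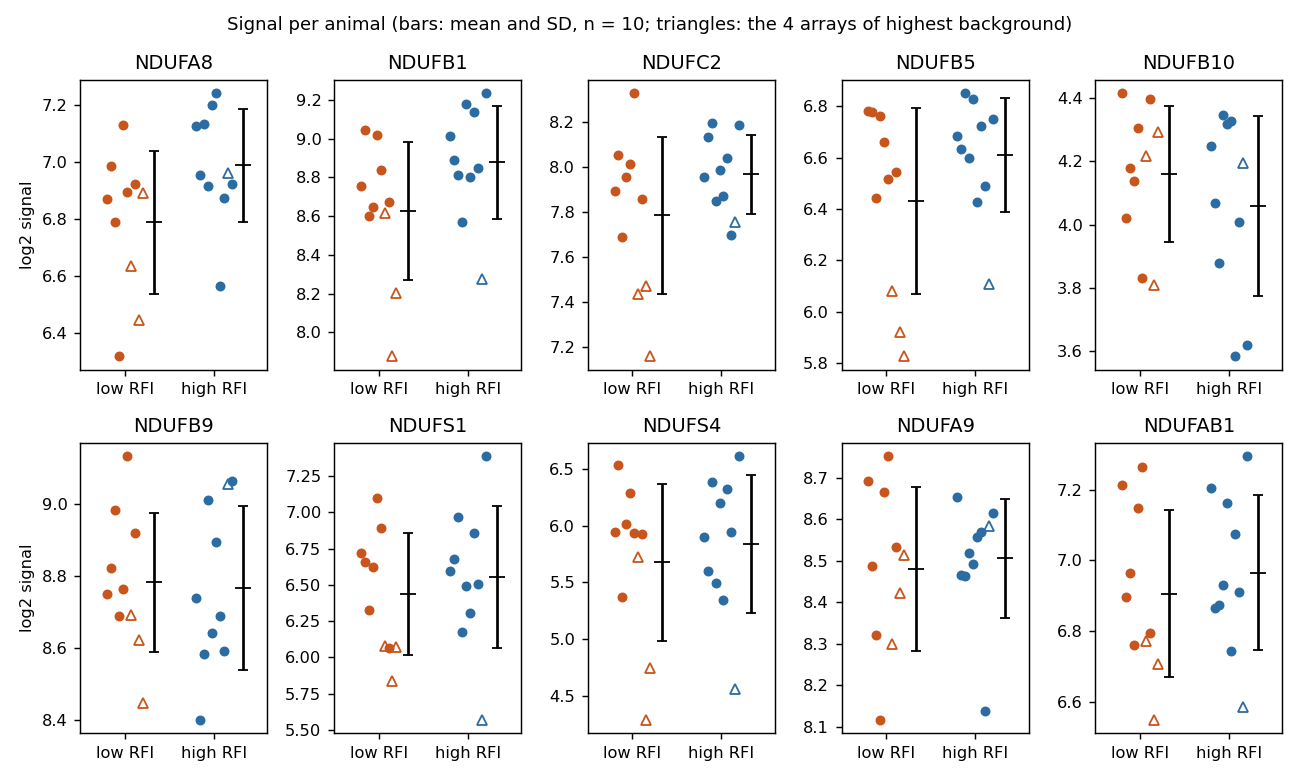
Log2 signal per animal for 10 subunits in low RFI (left) and high RFI (right), with the mean and SD of 10 animals as bars and the 4 arrays of highest background as open triangles. The groups overlap in every panel. In NDUFB1, NDUFC2, NDUFB5, NDUFS1, NDUFS4 and NDUFAB1 the triangles hold at least 3 of the 4 lowest values.

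Between animals the subunits did not vary as one block. After the group means were removed, the median correlation over the 300 pairs of subunits was 0.34, against a median of -0.0030 over all pairs of the 12255 tested genes, and 39.0% of the pairs exceeded 0.5, against 5.68% of all pairs. These correlations are across 20 shared arrays and are given as a description. Each subunit was then set against the mean of the other 24, which gave values from -0.011 for NDUFB10 to 0.87 for NDUFA12 and NDUFB1.

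A set of 14 subunits exceeded 0.7 in this measure, namely NDUFA12, NDUFB1, NDUFB5, NDUFB6, NDUFAB1, NDUFS4, NDUFB8, NDUFC2, NDUFC1, NDUFS1, NDUFB4, NDUFS5, NDUFB3 and NDUFS6. They came from both arms. Of the 12230 tested genes outside the list, 797 (6.52%) also had an r above 0.7 with the mean of the subunits. Such values were therefore not confined to complex I. The highest single pair of subunits was NDUFS4 with NDUFB1, at 0.927, followed by NDUFS1 with NDUFB6, at 0.911. Another 7 stayed below 0.25, namely NDUFV3, NDUFB11, NDUFB9, NDUFA10, NDUFA4, NDUFS7 and NDUFB10. NDUFB2, NDUFA1, NDUFA8 and NDUFA9 lay between. Some of the 7 varied with each other, such as NDUFA10 with NDUFB11 (0.79) and with NDUFB10 (0.75), and NDUFV3 with NDUFB10 (0.64). Each place rests on 1 probe set per gene, and other probe sets did not always follow it. With group means left in, a second NDUFB4 probe set had an r of -0.058 with the one read, and that of NDUFC1 0.74. For NDUFS7 the values were 0.44 and 0.29, and for NDUFV3 0.39. For NDUFB8 they were 0.48 and -0.036, for NDUFA1 -0.16 and for NDUFA4 -0.14.

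**Figure D3:**
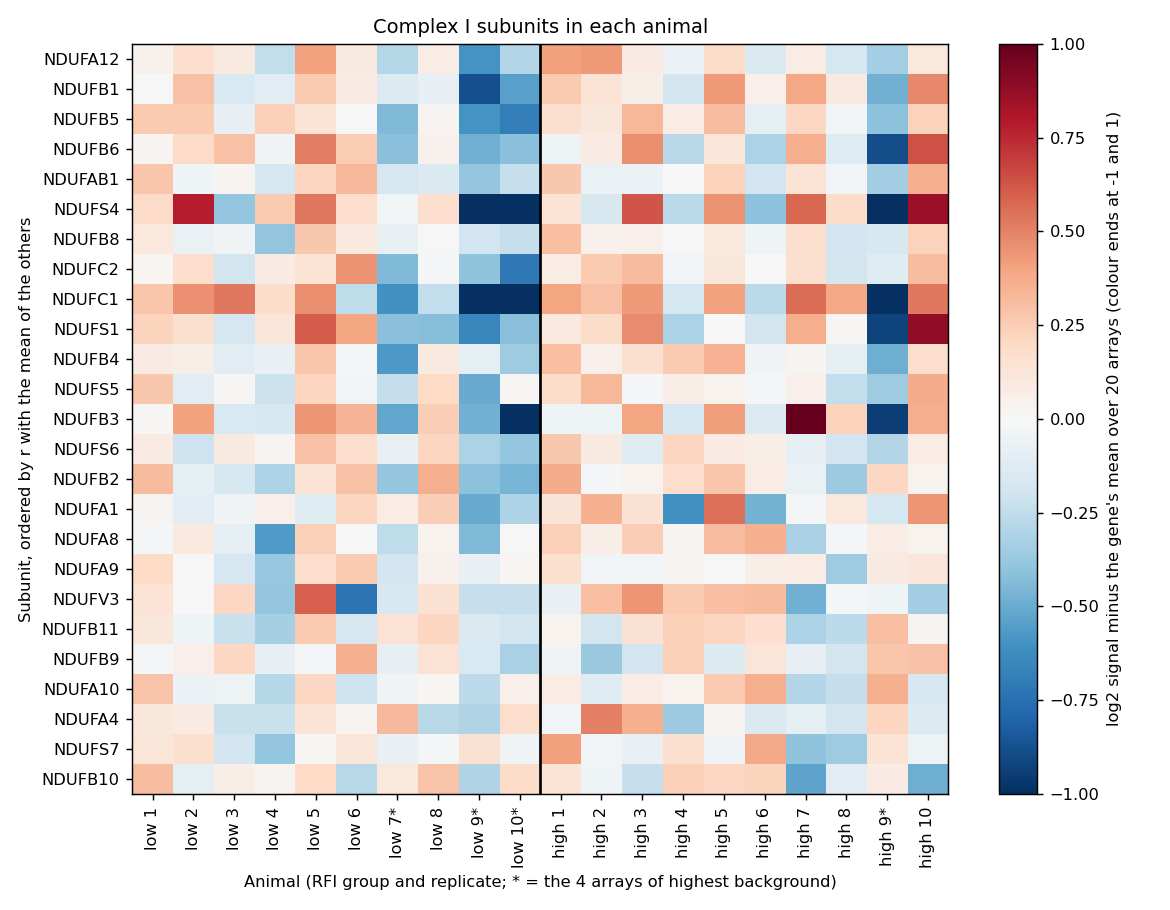
Log2 signal of each subunit minus its own mean over 20 arrays (colour), by animal, with low RFI left of the line and high RFI right of it and rows ordered by the correlation with the mean of the other subunits. The upper rows are mostly low together in low RFI replicates 9 and 10 and high RFI replicate 9, while the bottom rows are not.

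All of these 14 subunits read lower in the 4 arrays of highest background than in the other 16. Adjusted for RFI group, the median shift was -0.55, ranging from -1.22 for NDUFC1 and -1.19 for NDUFS4 to -0.18 for NDUFB8. For the 7 with an r below 0.25 the shift ranged from -0.17 to 0.15, and the median over all tested genes was 0.018. Both sets were picked by their r over all arrays, and the mean of the 25 subunits was lowest on these 4 arrays. The contrast in shift between the sets is therefore in part built in by that choice and is not a separate result. For 14 of the 25 subunits at least 3 of these arrays were among the 4 lowest, and for NDUFA12, NDUFB3, NDUFB5, NDUFB6 and NDUFC1 all 4 were. The same count was not made over all tested genes, so it is not shown to be particular to the subunits. Without the 4 arrays the median correlation over pairs was 0.28, and NDUFB8, NDUFB4 and NDUFA12 alone exceeded 0.7 against the mean of the others. NDUFC1 was then at 0.25, while NDUFB11 was at 0.51, NDUFA4 at 0.47, NDUFA10 at 0.37 and NDUFS7 at 0.30, so the split into these sets did not hold without the 4 arrays. The part of the background signal in the results was not tested beyond these values.

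**Figure D4:**
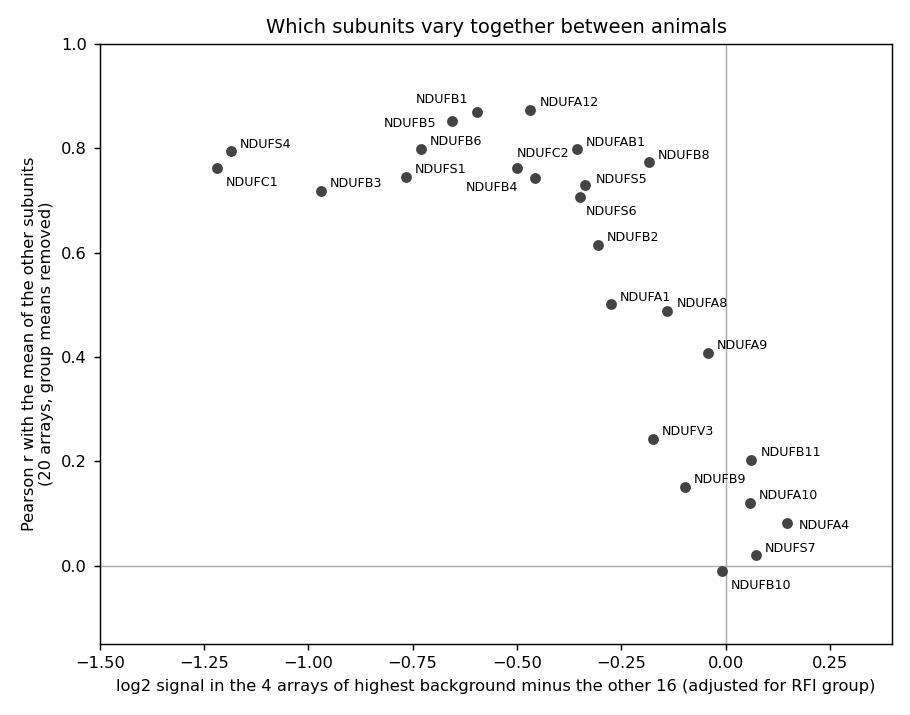
Each point is 1 subunit, with the difference in log2 signal between the 4 arrays of highest background and the other 16 on the x axis and its Pearson r with the mean of the other subunits on the y axis. The 14 subunits with an r above 0.7 lie between -1.22 (NDUFC1) and -0.18 (NDUFB8), and the 7 with an r below 0.25 between -0.17 (NDUFV3) and 0.15 (NDUFA4). Both axes come from the same arrays, so their relation is in part built in.

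Taken as the mean over the 25 subunits, the signal of an animal averaged 6.71 ± 0.22 in low RFI and 6.81 ± 0.15 in high RFI (SD, n = 10 each). It ran from 6.33 to 7.03 with a median of 6.77 in low RFI, and from 6.50 to 6.98 with a median of 6.84 in high RFI. The highest animal (replicate 5) and the lowest (replicate 9) were both of low RFI. The SD between animals was larger in low RFI for 15 of the 25 subunits, against 47.5% of all tested genes. Within the 16 arrays of lower background the mean, whose 4 lowest values lay on the other 4 arrays, had a Pearson r of -0.024 and a Spearman rho of -0.035 with the background control signal.

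**Figure D5:**
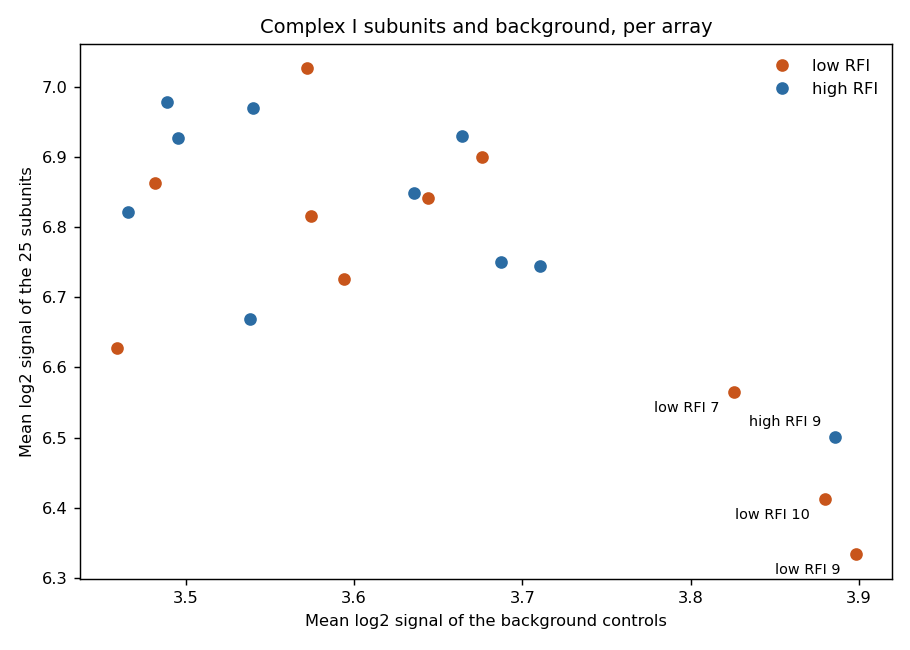
Mean log2 signal of the 25 subunits (y axis) against the mean log2 signal of the background controls (x axis), 1 point per array, for low RFI and high RFI. The 4 arrays at 3.83 and above hold the 4 lowest means, and no trend is visible among the other 16, where r was -0.024.

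The subunits encoded in mitochondrial DNA (the ND genes) and the accessory subunit NDUFA7 are not analysed here. Among the tested assembly factors and regulators of complex I, none passed limma at an adjusted p under 0.05. NUBPL was too dim to be tested. Of 19 listed assembly factors 8 were measured, of which 6 were lower and 2 higher in low RFI, with a median of -0.028, and 5 were lower without the 4 arrays. NDUFAF1, which helps to build the membrane arm, averaged 5.61 ± 0.69 in low RFI and 5.91 ± 0.39 in high RFI (SD, n = 10 each), a difference of -0.30 ± 0.23, and of 0.0058 without the 4 arrays. TMEM126B, a partner of NDUFAF1 in assembly, differed by -0.28 ± 0.27, and by -0.023 without them, and TMEM70 by -0.11 ± 0.14, with -0.11 without them. Between animals NDUFAF1 and TMEM126B varied with the mean of the subunits (r = 0.84 and 0.80 over 20 arrays, 0.40 and 0.38 over the 16). Such values were not particular to assembly factors. TTN, a muscle gene outside complex I, had an r of 0.81 over 20 arrays and of 0.40 over the 16. ACAD9, which works with NDUFAF1, differed by 0.067, and by -0.040 without the 4 arrays, and had an r of -0.27. NDUFAF3 differed by -0.00015. NDUFAF4, NDUFAF2 and NUBPL, at -0.013, -0.043 and 0.060, had means of 3.33, 1.99 and 1.74, below the background controls. NDUFA3, a subunit outside the list, differed by -0.013 ± 0.074 and had an r of -0.072 over 20 arrays and of 0.50 over the 16. NDUFA4L2, the hypoxia-inducible relative of NDUFA4, differed by -0.0015 ± 0.11 and ran against the subunits between animals (r = -0.66 over 20 arrays, -0.44 over the 16), with a difference of -0.14 without the 4 arrays.

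Of 7 listed regulators of mitochondrial genes 6 were measured, and 5 were lower in low RFI, or 4 without the 4 arrays. TFAM, which packages and transcribes mitochondrial DNA, averaged 3.60 ± 0.23 in low RFI and 3.999 ± 0.30 in high RFI (SD, n = 10 each). The difference was -0.40 ± 0.12, with an unadjusted limma p of 0.00328 and an adjusted p of 0.998. Without the 4 arrays it was -0.34. The mean of TFAM over 20 arrays, 3.80, was close to that of the background controls, 3.64. PPARGC1A, the coactivator PGC-1alpha, had the widest spread, 5.63 ± 1.36 in low RFI and 6.36 ± 1.15 in high RFI, and its difference of -0.73 ± 0.51 was -0.48 without the 4 arrays. GABPA and PPARGC1B, both with means below the background controls, differed by -0.16 and -0.044, and YY1 by -0.048, while NRF1, a factor of many respiratory chain promoters, was at 0.12 ± 0.092. Their correlations with the mean of the subunits between animals lay between -0.45 for YY1 and 0.51 for GABPA over 20 arrays. Over the 16 arrays of lower background they lay between -0.60 for YY1 and 0.37 for GABPA. PPARGC1A changed sign between the 2 sets of arrays, from 0.36 over 20 to -0.32 over the 16, and TFAM went from 0.32 to 0.050.

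Fibre and cell type markers were set beside the subunits, and none passed limma at an adjusted p under 0.05. All 10 measured slow fibre markers of 11 listed were lower in low RFI, with a median of -0.093, and their mean level ran from 8.56 to 10.01 in low RFI and from 8.81 to 10.07 in high RFI. With that level as a covariate 22 of 25 subunits were lower and their median was -0.075. Without the 4 arrays 9 of 10 slow fibre markers were lower, with a median of -0.085. Of 9 measured fast fibre markers of 10 listed 8 were lower, by a median of -0.036, with mean levels of 11.4 to 11.9 in low RFI and 11.6 to 12.02 in high RFI, but without the 4 arrays 3 of 9 were lower and the median was 0.023. All 4 measured macrophage markers of 6 listed were higher in low RFI, by a median of 0.36, with mean levels of 4.94 to 5.70 in low RFI and 4.42 to 5.27 in high RFI. Of these, 3 had an unadjusted limma p under 0.05, VSIG4 (0.0242), MSR1 (0.0309) and TYROBP (0.0483), against 3.91% of all tested probe sets. MSR1 had a mean of 3.61, below the background controls. The fibroblast marker COL1A2 (0.0425) and the red blood cell marker SLC4A1 (0.0292) also had an unadjusted limma p under 0.05. All 6 fibroblast markers were higher, by 0.15, with mean levels of 8.91 to 9.41 in low RFI and 8.60 to 9.46 in high RFI, and 6 of 7 adipocyte markers were higher, by 0.16, with 5.91 to 7.68 in low RFI and 5.86 to 7.57 in high RFI. Endothelial markers had 3 of 7 lower, with mean levels of 5.61 to 6.13 in low RFI and 5.60 to 6.16 in high RFI. Smooth muscle and pericyte markers had 1 of 4 measured lower, with 6.18 to 6.99 in low RFI and 6.15 to 6.97 in high RFI, and red blood cell markers 2 of 3, with 3.55 to 4.30 in low RFI and 3.56 to 4.47 in high RFI. From macrophage to red blood cell markers, the counts of lower genes stayed the same without the 4 arrays. Medians were then 0.40 for macrophage, 0.16 for fibroblast and 0.17 for adipocyte markers. They were 0.056 for endothelial, 0.050 for smooth muscle and pericyte and -0.10 for red blood cell markers. No marker was at 0. Except for the slow fibre level, the part of these markers in the subunit differences was not tested.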

How the data were processed

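Purified total RNA was converted to DNA, fragmented, biotin-labelled and hybridised, per the labels' protocols. The authors deposited 1 value per probe set and array, on a log2 scale as judged from the values. The submitters' processing notes name GCOS 1.1.1. Probe summarisation, background correction and normalization are not given in the sources used here. Array means over all probe sets lay between 3.33 and 3.35, so the values were tested as deposited. Of 47845 probe sets 123 were controls, 69 of them background controls. Those above the 30th percentile of mean signal among the others (1.75) were tested, which left 33405. The number of arrays limits the precision, and dim signals compress differences. Groups came from the RFI labels, which give no litter, pairing or batch, and replicate numbers only name animals.

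Symbols came from the platform annotation (26426 probe sets with 1 symbol); older names of companion genes were looked up in the RefSeq gene table of Sscrofa11.1. Groups were compared across all tested probe sets with limma 3.58.1 under R 4.3.3 (lmFit and eBayes, 2-sided tests), and p-values were adjusted by Benjamini-Hochberg over the 33405. The code was tested on simulated data. Figures used matplotlib 3.10.9 in Python 3.11.15. The subunits, gene lists and tests were chosen with earlier results of these data known. Every matched subunit was named, with fuller values for the 4 of smallest p in each direction (2 were higher), NDUFS1, NDUFA4, NDUFAB1 and those of largest and smallest SD; the assembly factors, regulators and marker lists were described beside them. The bounds of 0.7 and 0.25 on correlations were set after the values were seen. Alternatives covered normalization, the filter, array weights, eBayes settings, covariates, probe set choice and the arrays included.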

Additional observations from a re-analysis of the deposited data

Results flagged for a closer look

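In the 54 groups of 10 animals examined (25 subunits, their mean and the background control signal, in each RFI group), 3 held a value far from the rest, and chance flags about 5% of such groups. NDUFA9 read 8.14 in high RFI replicate 8, where the next lowest animal of its group read 8.46. NDUFC1 read 4.17 in high RFI replicate 9, with the next at 5.04, and NDUFB4 read 6.58 in the same animal, with the next at 6.98. High RFI replicate 9 is among the 4 arrays of highest background. Without it the differences, low RFI minus high RFI, were -0.42 for NDUFC1 and -0.20 for NDUFB4, and without high RFI replicate 8 that of NDUFA9 was -0.066.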

How the results depend on the processing

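No subunit passed the adjusted threshold under any alternative, and the median difference stayed below 0 in all of them. The count of lower subunits ranged from 18 without the 4 arrays of highest background to 24 of 25, and leaving out 1 animal at a time gave 20 (without low RFI replicate 4) to 24 and medians from -0.14 (without low RFI replicate 5) to -0.050 (without low RFI replicate 9). Among single subunits, the difference turned positive after quantile normalization for NDUFA9 (0.029), NDUFB6 (0.026) and NDUFS6 (0.024), and after cyclic loess for NDUFA9 (0.0053), NDUFB6 (0.018) and NDUFS6 (0.0094). With array weights NDUFB6 stood at 0.013. With the background covariate NDUFB6 stood at 0.11, NDUFS4 at 0.036 and NDUFS6 at 0.0062, and with the slow fibre covariate NDUFB6 at 0.055. Without the 4 arrays NDUFA9 was at 0.013, NDUFB2 at 0.021, NDUFB6 at 0.085, NDUFS4 at 0.024 and NDUFS6 at 0.051. With all probe sets of a gene averaged, NDUFA4 was at 0.019. Leaving out 1 animal at a time turned the sign of NDUFA4 (-0.075 to 0.021), NDUFA9 (-0.066 to 0.015), NDUFB6 (-0.10 to 0.068), NDUFB9 (-0.025 to 0.052), NDUFS6 (-0.054 to 0.021) and NDUFS7 (-0.075 to 0.015). The cause of these turns was not tested. Across the array 0 probe sets were called by limma in each of these fits, except for 1 without the 4 arrays and 1 without high RFI replicate 9. Both times it was CYP11A1, a steroid synthesis enzyme named here after its values were seen (1.53, adjusted p = 0.00264, and 1.74, adjusted p = 0.00364). Counting NDUFV2 as a further subunit gave 24 of 26 lower, and 21 of the 22 with a mean of 5 or more were lower, both chosen after seeing the data, as was leaving out the 4 arrays for assembly factors, regulators and markers. No paired analysis was possible because the labels give no pairing.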
